A study of Mus musculus with 6 samples.

Results

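The secreted and membrane-bound metalloproteinases that cut extracellular matrix and cell-surface proteins, together with their inhibitors, were examined in mouse bone marrow stromal cells carrying the Pth1rΔNLS allele. The set was every gene listed in the deposited table whose GENCODE symbol was an Mmp, Adam, Adamts or Adamtsl gene, a Timp, or Reck. It held 42 of 11896 listed genes, read from 64 of 23351 transcripts: 13 matrix metalloproteinases (MMPs), 11 ADAMs, 10 ADAMTS proteases, 4 ADAMTS-like genes, and 4 inhibitors (Timp1, Timp2, Timp3 and Reck). GENCODE M21 annotates 85 such genes, and the other 43 were not analysed here, among them Mmp3, Mmp7, Mmp15, Mmp16, Adamts3, Adamts8, Adamts15 and Timp4. Within the set, Mmp2, Adamts5 and Adamts12 were set apart as stromal genes, and Mmp12 and Mmp8 as myeloid genes.

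The 6 RNA-seq libraries came from primary bone marrow stromal cells of mice, 3 with the Pth1rΔNLS allele and 3 wild type (WT). Pth1rΔNLS is an allele of Pth1r, the receptor for parathyroid hormone, that lacks the nuclear localisation signal, and the series text names these animals as heterozygotes. Not given in the sources used here are the age, sex and strain of the mice, how the cells were isolated or cultured, and whether libraries are separate animals. All p-values thus rest on the spread between these 6 samples alone, which may be technical.

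MMPs are zinc proteases made as inactive precursors, and between them they degrade collagens, elastin and proteoglycans. ADAMs are mostly membrane-anchored and release the outer parts of receptors, ligands and adhesion proteins, whereas ADAMTS proteases are secreted and cut aggrecan, versican and procollagens. TIMPs block the active sites of MMPs and of some ADAMs and ADAMTS proteases, and in bone these enzymes take part in matrix turnover by osteoblasts, osteoclasts and macrophages.

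Levels are given as FPKM (fragment numbers divided by the transcript's length and the library's mapped total), summed over the listed transcripts of a gene. FPKM share a total within a library, the sequencing depth is unknown, and no source used here says whether counting used strand. Listed values summed to 315872 to 343328 FPKM per library, and the mitochondrially encoded share was 10.6 to 18.2% in Pth1rΔNLS libraries and 6.47 to 12.8% in WT libraries. The libraries held transcripts of blood cells as well as stroma. Of 12 macrophage and monocyte markers 11 were listed, none at 0 in any library, and they summed to 5437 to 5601 FPKM in Pth1rΔNLS libraries and 3989 to 4214 FPKM in WT libraries, with 8 higher and 0 lower in the limma test described next. Of 8 stromal markers 6 were listed, and they summed to 611 to 707 FPKM in Pth1rΔNLS libraries and 1596 to 2108 FPKM in WT libraries, with 0 higher and 5 lower. The stromal markers were Col1a1, Col1a2, Cxcl12, Dcn, Pdgfra and Pdgfrb, with none at 0 and with Lum and Thy1 not analysed here, and Ccr2 was the macrophage marker not analysed. In such bulk RNA, fewer cells of a type and less RNA per cell cannot be told apart.

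Genotypes were compared across all genes with limma on log2(FPKM + 1), and a gene was called changed where the Benjamini-Hochberg adjusted p was below 0.05. Of 10905 genes that averaged 1 FPKM or more, 1886 (17.3%) were called, 757 (6.94%) higher and 1129 (10.4%) lower in Pth1rΔNLS. Among the 42 proteases and inhibitors, 37 reached that mean, of which 5 (13.5%) were higher and 16 (43.2%) lower, while 16 did not pass the threshold. The 5 that rose were Mmp8, Mmp10, Mmp12, Mmp27 and Adam8. The 16 that fell were Mmp2, Mmp11, Mmp13, Mmp14, Mmp17, Mmp23, Adam12, Adamts1, Adamts2, Adamts4, Adamts5, Adamts9, Adamts12, Adamtsl3, Timp2 and Timp3. The median log2 fold change over the 37 was -0.42, against -0.01 over all tested genes. A fall of at least 1 on the log2 scale with a call was found for 8 of the 37 (21.6%), against 2.61% of tested genes.

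In 25 of the 37 tested genes (67.6%) the 3 Pth1rΔNLS libraries lay entirely above or below the 3 WT libraries, 7 above and 18 below, against 36.6% of all tested genes. That number includes all 21 called genes, and the other 4 were Adam1a, Adam10, Adamts6 and Adamts14. Adam1a, Adamts9, Mmp8 and Mmp17 averaged under 1 FPKM in one genotype and were tested because of their level in the other. Without the filter all 42 were tested, and the same 5 rose and the same 16 fell. Without the pair of libraries with the highest mitochondrial share among Pth1rΔNLS (replicate 1) and the lowest among WT (replicate 1), 620 of the 10905 genes were called, among them 12 of the 37, 2 higher (Mmp12 and Adam8) and 10 lower. By family, MMPs counted 4 higher and 6 lower of 11 tested, ADAMTS proteases 0 higher and 6 lower of 8, ADAMs 1 higher and 1 lower of 10, ADAMTS-like genes 0 higher and 1 lower of 4, and inhibitors 0 higher and 2 lower of 4.

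**Figure D1:**
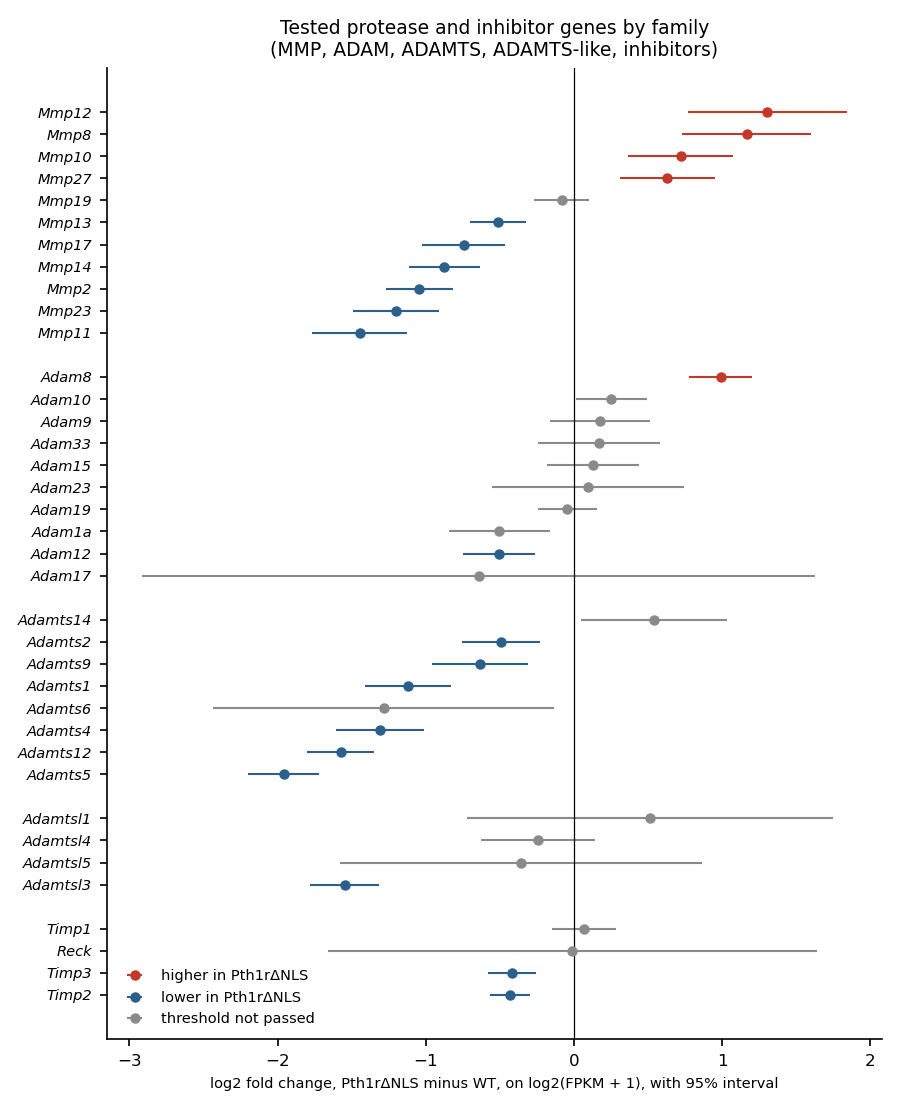
Log2 fold change (Pth1rΔNLS minus WT, on log2(FPKM + 1)) of the 37 tested protease and inhibitor genes, grouped by family; points are limma estimates from 3 libraries per genotype and lines are 95% intervals. All 6 called ADAMTS genes lie left of 0, while the 11 tested MMPs spread from -1.45 (Mmp11) to 1.31 (Mmp12).

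Summed over each family, MMP transcripts came to 378, 387 and 390.3 FPKM in the Pth1rΔNLS libraries and to 587, 571 and 589 FPKM in the WT libraries. The sums did not overlap, and they rested on few genes. Mmp13, Mmp14 and Mmp2 made up 39.5, 34.8 and 25.8% of the difference between the mean sums (-198 FPKM), and Mmp12, which rose, counted as -9.51% of it. ADAM transcripts summed to 358, 330.3 and 329 FPKM in Pth1rΔNLS libraries, against 261, 264 and 274 FPKM in WT libraries, and Adam8 alone made up 88.5% of that difference. ADAMTS transcripts summed to 40.7, 40.7 and 46.0 FPKM in Pth1rΔNLS libraries, against 90.7, 88.5 and 91.0 FPKM in WT libraries. Adamts12, Adamts5 and Adamts4 made up 35.4, 25.9 and 16.9% of the ADAMTS difference. For the ADAMTS-like genes the sums overlapped, at 15.1, 14.3 and 21.1 FPKM in Pth1rΔNLS libraries and 27.4, 19.6 and 28.0 FPKM in WT libraries. These sums are descriptions and were given no test.

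**Figure D2:**
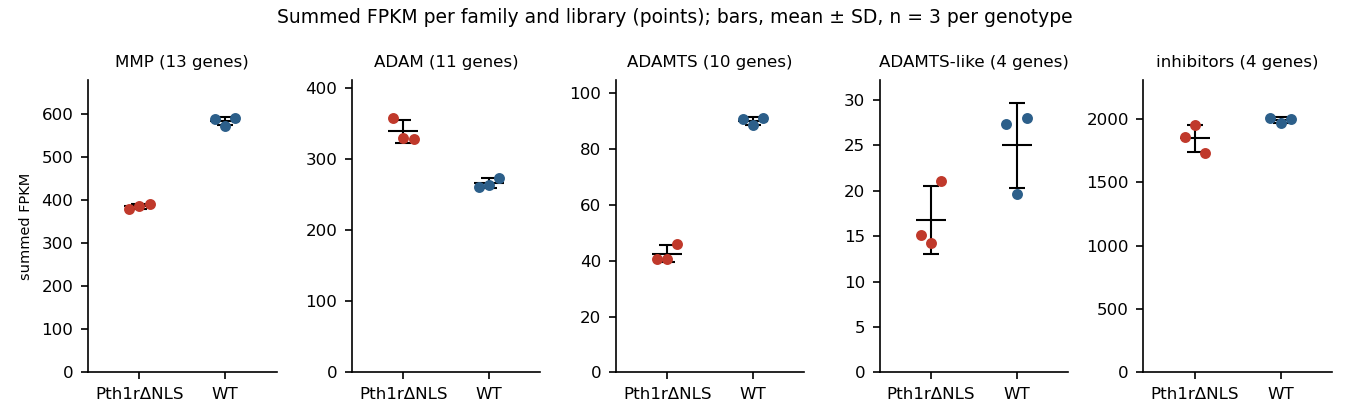
Summed FPKM of each family in each library (points), with the mean and SD of the 3 libraries per genotype, Pth1rΔNLS left of WT. The MMP, ADAMTS and inhibitor sums are lower in all 3 Pth1rΔNLS libraries than in all 3 WT libraries, the inhibitor sums narrowly. The ADAM sums are higher, and the ADAMTS-like sums overlap.

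Among the MMPs encoded outside chromosome 9, the gelatinase Mmp2 and its activator Mmp14 were both lower in Pth1rΔNLS. Mmp2 (ENSMUSG00000031740.8, chr8:92827291-92853420, plus strand), which cleaves denatured collagen and basement membrane collagen, had 42.9, 51.3 and 47.0 FPKM in the Pth1rΔNLS libraries and 103, 89.0 and 102 FPKM in the WT libraries. The highest Pth1rΔNLS library lay below the lowest WT library by a wide margin, and the means were 47.0 ± 4.20 FPKM in Pth1rΔNLS and 98.0 ± 7.78 FPKM in WT (SD, n = 3 each). This gave a log2 fold change of -1.04 with a standard error of 0.09 and an adjusted p of 0.00111. Mmp14 (chr14:54431612-54445364, plus strand), the membrane-anchored collagenase that converts pro-MMP2 to its active form, had 75.3, 82.0 and 85.0 FPKM in Pth1rΔNLS and 158, 130.5 and 160.1 FPKM in WT, without overlap. Its log2 fold change was -0.88 (SE 0.10, adjusted p = 0.00246). The other membrane-type MMP listed was Mmp17, which is held by a lipid anchor, at 0.434, 0.625 and 0.542 FPKM in Pth1rΔNLS and 1.65, 1.42 and 1.63 FPKM in WT (log2 fold change -0.74, adjusted p = 0.00808). Mmp17 stood near the bottom of the range and lost its call without the replicate 1 library of both genotypes (adjusted p = 0.0919).

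Mmp11 and Mmp23, both of which carry a furin cleavage site and are activated before they leave the cell, fell as well. Mmp11 had 2.18, 3.03 and 2.77 FPKM in Pth1rΔNLS and 8.33, 8.37 and 10.2 FPKM in WT (log2 fold change -1.45, SE 0.13, adjusted p = 0.00120). The gene overlaps Chchd10 on the opposite strand, so its reads may not all be its own. Mmp23 had 10.998, 13.3 and 12.5 FPKM in Pth1rΔNLS and 29.2, 25.9 and 33.6 FPKM in WT (log2 fold change -1.20, SE 0.12, adjusted p = 0.00154). Every Pth1rΔNLS library lay below every WT library for both genes. Mmp19, a widely expressed secreted MMP, averaged 12.2 ± 0.347 FPKM in Pth1rΔNLS and 13.0 ± 0.694 FPKM in WT and was not called, with a 95% interval of -0.27 to 0.11 around a log2 fold change of -0.08. Gelatinase B, Mmp9, an enzyme of osteoclasts and neutrophils, was below the tested range, with 0.821, 0.594 and 1.02 FPKM in Pth1rΔNLS and 0.778, 0.695 and 1.06 FPKM in WT, and the libraries overlapped. Mmp28 was untested too and was listed at 0 in 1 library, with 0.470, 0.758 and 0 FPKM in Pth1rΔNLS and 1.10, 0.691 and 1.02 FPKM in WT.

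**Figure D3:**
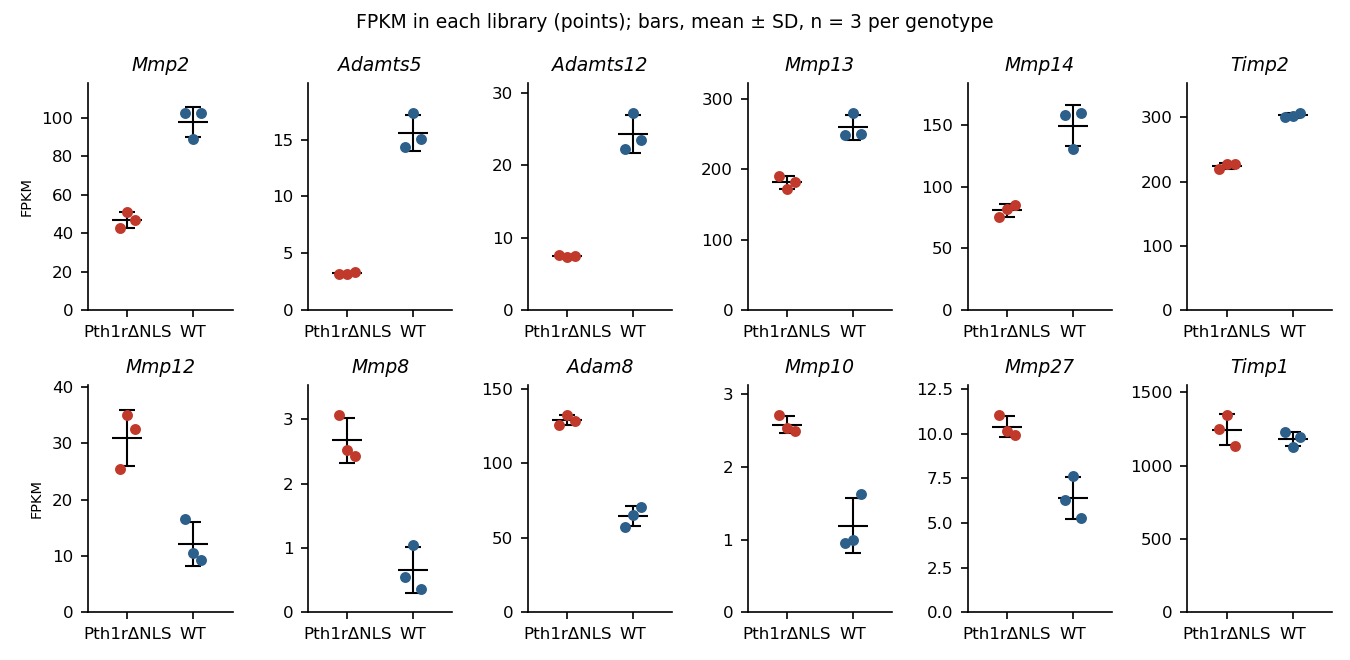
FPKM of 12 protease and inhibitor genes in each library (points), with the mean and SD of 3 libraries per genotype, Pth1rΔNLS left of WT, each panel starting at 0. Mmp2, Adamts5, Adamts12, Mmp13, Mmp14 and Timp2 are lower in all 3 Pth1rΔNLS libraries, Mmp12, Mmp8, Adam8, Mmp10 and Mmp27 are higher, and Timp1 overlaps.

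The MMP genes of chromosome 9 lie in one cluster (mm10, chr9:7272514-7699585, 427072 bases), and this cluster held 4 of the 5 genes of the set that rose in Pth1rΔNLS, the other being Adam8 on chromosome 7. GENCODE M21 places 10 Mmp genes there, of which 5 were listed: Mmp13, Mmp12, Mmp10, Mmp8 and Mmp27, in that order along the chromosome. All 5 were called, against 17.3% of all tested genes, but not in the same direction. Mmp13 at one end was lower, and the other 4 were higher. Their promoters are shown because these neighbours moved in opposite directions. The stretches run from 250 bases before to 50 bases after the RefSeq transcription start (GRCm38.p6, plus strand). Capitals mark the AP-1 motif TGAGTCA and the RUNX motif TGTGGTT, found on either strand.
Mmp13 (chr9:7272264-7272563): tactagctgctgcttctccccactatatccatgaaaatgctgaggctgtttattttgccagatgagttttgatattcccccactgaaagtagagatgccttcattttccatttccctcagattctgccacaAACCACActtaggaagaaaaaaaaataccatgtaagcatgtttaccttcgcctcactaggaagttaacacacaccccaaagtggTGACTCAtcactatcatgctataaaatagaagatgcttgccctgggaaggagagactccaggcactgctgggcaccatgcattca
Mmp12 (chr9:7344147-7344446): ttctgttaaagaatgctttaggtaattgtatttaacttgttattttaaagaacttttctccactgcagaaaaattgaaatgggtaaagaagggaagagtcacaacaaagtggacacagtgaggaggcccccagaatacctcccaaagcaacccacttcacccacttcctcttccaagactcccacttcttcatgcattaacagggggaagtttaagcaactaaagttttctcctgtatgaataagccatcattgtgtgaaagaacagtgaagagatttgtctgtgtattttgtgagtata
Mmp10 (chr9:7502092-7502391): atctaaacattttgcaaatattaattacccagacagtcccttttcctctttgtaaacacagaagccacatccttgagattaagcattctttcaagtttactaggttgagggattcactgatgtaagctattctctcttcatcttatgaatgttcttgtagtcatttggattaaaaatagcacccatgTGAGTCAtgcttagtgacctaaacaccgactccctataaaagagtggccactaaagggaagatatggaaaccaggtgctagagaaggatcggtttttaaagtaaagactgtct
Mmp8 (chr9:7558179-7558478): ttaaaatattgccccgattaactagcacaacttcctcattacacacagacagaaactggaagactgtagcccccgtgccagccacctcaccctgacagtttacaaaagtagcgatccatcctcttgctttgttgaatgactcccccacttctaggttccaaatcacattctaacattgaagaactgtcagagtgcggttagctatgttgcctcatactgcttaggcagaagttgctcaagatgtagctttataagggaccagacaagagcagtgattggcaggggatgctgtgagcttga
Mmp27 (chr9:7571146-7571445): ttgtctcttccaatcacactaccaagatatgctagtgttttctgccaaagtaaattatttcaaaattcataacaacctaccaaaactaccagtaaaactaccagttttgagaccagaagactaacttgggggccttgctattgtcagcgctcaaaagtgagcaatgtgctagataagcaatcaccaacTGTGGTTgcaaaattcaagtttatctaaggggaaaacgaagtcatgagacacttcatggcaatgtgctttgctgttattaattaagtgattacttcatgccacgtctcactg

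In the Mmp10 stretch, TGAGTCA began 63 bases before the start, with TATAAA 29 bases before it. The Mmp13 stretch held the AP-1 motif on the minus strand (read as TGACTCA, 35 bases before the start) and the RUNX motif on the minus strand (read as AACCACA, 119 bases before the start). Mmp27, which rose, also held a RUNX match, 62 bases before the start, and the Mmp12 and Mmp8 stretches held neither motif. Of the 28 genes of the set with a RefSeq promoter, 3 held the AP-1 motif (Mmp10, Mmp13 and Adam19) and 2 the RUNX motif (Mmp13 and Mmp27), against 3.36 and 3.54% of 9321 promoters of listed genes. The motif TATAAA, searched on both strands as well, was in 4 (Mmp8, Mmp10, Mmp13 and Adamts1), against 6.73% of the 9321. The ETS motif AGGAAG, on either strand, was in 9 of the 28, among them Mmp8, Mmp12 and Mmp13 of the cluster, against 33.0% of the 9321. Among those 28, AP-1 was found in 1 of 5 genes that rose and 1 of 11 that fell, and so was RUNX. A match is a string of letters in this window and says nothing of binding. The 5 cluster promoters were also poor in CpG, with 0 to 4 CpG per 300 bases (median 2), against 4 to 46 (median 24) in the other 23 promoters of the set.

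Mmp12 (ENSMUSG00000049723.14, chr9:7344381-7369499, plus strand), the elastase of macrophages, had 25.4, 35.0 and 32.4 FPKM in the Pth1rΔNLS libraries and 16.6, 10.6 and 9.26 FPKM in the WT libraries. All Pth1rΔNLS libraries lay above all WT libraries, although WT replicate 1 stood higher than the other WT libraries. The means were 30.9 ± 4.99 FPKM in Pth1rΔNLS and 12.2 ± 3.93 FPKM in WT (SD, n = 3 each), and the log2 fold change was 1.31 (SE 0.22, adjusted p = 0.0108). The transcript ENSMUST00000005950.11 was at 25.4, 23.9 and 32.4 FPKM in Pth1rΔNLS and 16.6, 10.6 and 9.26 FPKM in WT. Its other listed transcript, ENSMUST00000120655.7, was given 11.2 FPKM in Pth1rΔNLS replicate 2 and 0 to 0.0159 FPKM in every other library. Mmp8 (ENSMUSG00000005800.3, chr9:7558456-7568485, plus strand), the collagenase of neutrophils, was scarce, with 3.07, 2.52 and 2.43 FPKM in Pth1rΔNLS and 0.552, 1.05 and 0.359 FPKM in WT. The genotypes did not overlap, and the log2 fold change was 1.17 (SE 0.18, adjusted p = 0.00795). Without the replicate 1 library of both genotypes the adjusted p of Mmp8 was 0.0892.

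Mmp10, a stromelysin that cleaves proteoglycans and activates other pro-MMPs, had 2.71, 2.54 and 2.49 FPKM in Pth1rΔNLS and 0.954, 1.000 and 1.63 FPKM in WT (log2 fold change 0.72, adjusted p = 0.0202). Mmp27, a less studied MMP, had 11.1, 10.2 and 9.95 FPKM in Pth1rΔNLS and 6.29, 7.64 and 5.29 FPKM in WT (log2 fold change 0.63, adjusted p = 0.0225). Of its 3 listed transcripts, ENSMUST00000152878.2 averaged 5.58 FPKM in Pth1rΔNLS and 2.45 FPKM in WT, and ENSMUST00000120900.7 1.84 and 1.23 FPKM. The transcript ENSMUST00000151853.7 overlapped, averaging 2.96 FPKM in Pth1rΔNLS and 2.73 FPKM in WT. As gene sums, neither Mmp10 nor Mmp27 overlapped between genotypes, but their adjusted p were the highest of the 5 that rose. Mmp10 lost its call without WT 1, WT 2 or any one Pth1rΔNLS library (adjusted p 0.0521 to 0.0689), and Mmp27 without WT 1, WT 3 or any one Pth1rΔNLS library (0.0571 to 0.0768), so that 3 genes of the set were higher without WT 1 or any Pth1rΔNLS library. Mmp13 (chr9:7272514-7283331, plus strand), the main collagenase of osteoblasts and hypertrophic chondrocytes, had 191, 172 and 182 FPKM in Pth1rΔNLS and 249, 281 and 249.9 FPKM in WT, again without overlap. Its log2 fold change was -0.51 (SE 0.08, adjusted p = 0.00730), the smallest fall among the called MMPs on this scale. At these levels Mmp13 was nevertheless the most abundant MMP listed in both genotypes.

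**Figure D4:**
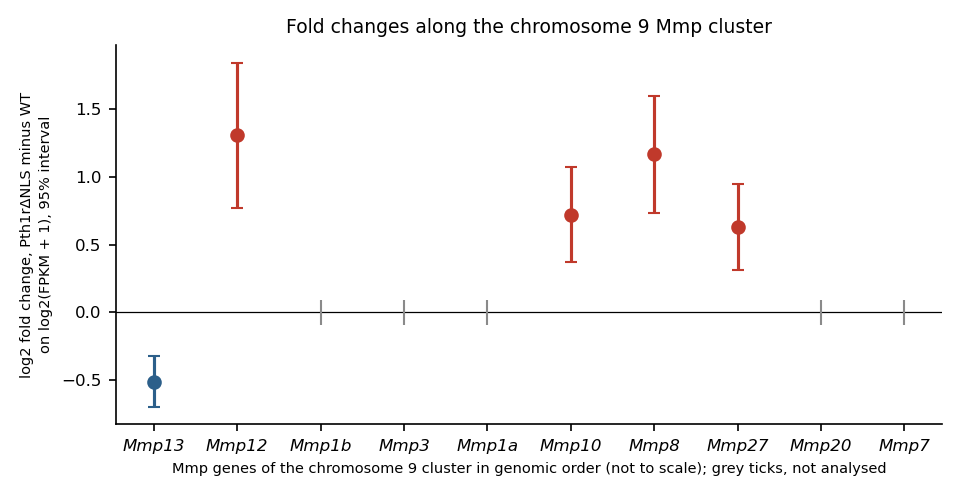
Log2 fold change (Pth1rΔNLS minus WT, on log2(FPKM + 1)) of the Mmp genes of the chromosome 9 cluster in genomic order, with 95% limma intervals from 3 libraries per genotype; grey ticks are genes not analysed. Mmp13 lies below 0, and Mmp12, Mmp10, Mmp8 and Mmp27 lie above it.

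The ADAMTS proteases showed falls and no rise that passed the test. Adamts5 (ENSMUSG00000022894.6, chr16:85856173-85901828, minus strand), the main aggrecan-cutting enzyme of mouse cartilage, had 3.21, 3.21 and 3.37 FPKM in the Pth1rΔNLS libraries and 14.4, 17.4 and 15.1 FPKM in the WT libraries. The 3 Pth1rΔNLS values lay close together and far below WT, with means of 3.26 ± 0.0926 FPKM in Pth1rΔNLS and 15.6 ± 1.58 FPKM in WT (SD, n = 3 each), the WT mean being 4.78 times the Pth1rΔNLS mean. The log2 fold change was -1.96 (SE 0.10, 95% interval -2.20 to -1.72, adjusted p = 0.000168), the lowest value among the 37 tested genes. Adamts1 (chr16:85793827-85803113, minus strand), a versican-cutting neighbour of Adamts5 on chromosome 16, had 1.95, 1.51 and 1.55 FPKM in Pth1rΔNLS and 4.51, 4.52 and 5.31 FPKM in WT (log2 fold change -1.12, adjusted p = 0.00200). Adamts4, the other classical aggrecanase, had 3.95, 4.53 and 4.72 FPKM in Pth1rΔNLS and 14.1, 10.7 and 12.4 FPKM in WT (log2 fold change -1.31, adjusted p = 0.00129). Adamts9, which also cuts versican, had 0.576, 0.599 and 0.749 FPKM in Pth1rΔNLS and 1.57, 1.85 and 1.25 FPKM in WT (log2 fold change -0.63, adjusted p = 0.0228). All 4 listed genes of this aggrecan- and versican-cutting group were called lower, against 10.4% of all tested genes. None overlapped between genotypes, against 36.6% of all tested genes without overlap. The call of Adamts9, the lowest of the 4 by level, was lost in 5 fits that each left out 1 library.

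Adamts12 (ENSMUSG00000047497.10, chr15:11064790-11349231, plus strand), which cuts cartilage oligomeric matrix protein, had 7.61, 7.29 and 7.50 FPKM in Pth1rΔNLS and 22.3, 27.2 and 23.4 FPKM in WT. The libraries did not overlap, the WT mean was 3.25 times the Pth1rΔNLS mean, and the log2 fold change was -1.57 (SE 0.10, adjusted p = 0.000288). Of the procollagen N-proteinases, 1 of the listed pair fell. Adamts2, which trims type I procollagen, had 12.3, 14.4 and 14.3 FPKM in Pth1rΔNLS and 21.1, 17.3 and 20.7 FPKM in WT (log2 fold change -0.49, adjusted p = 0.0262). Adamts14, a protease of the same kind, had 7.66, 8.18 and 9.12 FPKM in Pth1rΔNLS and 6.25, 3.64 and 6.75 FPKM in WT and did not pass (log2 fold change 0.54, 95% interval 0.05 to 1.04, adjusted p = 0.130), although its libraries did not overlap. The difference between these genes was not tested. Adamts6 was listed at 0 in Pth1rΔNLS replicate 2, with 2.33 and 2.55 FPKM in the others and 4.35, 4.25 and 5.09 FPKM in WT, and it passed only without that library (adjusted p = 0.125 with it and 0.0369 without). Adamts2 lost its call without any one Pth1rΔNLS library, WT 1 or WT 3 (adjusted p 0.0644 to 0.0882), and Adamts9 without any one Pth1rΔNLS library, WT 1 or WT 2 (0.0538 to 0.0791). Adamts7 and Adamts10 averaged under 1 FPKM and were not tested.

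ADAMTS-like proteins share the matrix-binding domains of ADAMTS proteases but have no catalytic domain. Adamtsl3 had 2.01, 2.01 and 2.31 FPKM in Pth1rΔNLS and 8.45, 7.95 and 7.83 FPKM in WT, with no overlap, and its log2 fold change of -1.55 (SE 0.10, adjusted p = 0.000332) was close to that of Adamts12. The other 3 did not pass. Adamtsl4, a binder of fibrillin microfibrils, averaged 8.36 ± 1.36 FPKM in Pth1rΔNLS and 10.1 ± 1.74 FPKM in WT. Adamtsl1 was scattered, at 2.35, 3.23 and 2.78 FPKM in Pth1rΔNLS and 0.510, 0.937 and 5.32 FPKM in WT, and passed, as higher, only without WT 3 (adjusted p = 0.0209). Adamtsl5 was scattered in both genotypes, at 3.43, 1.10 and 6.14 FPKM in Pth1rΔNLS and 7.63, 2.61 and 3.47 FPKM in WT.

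Among the 10 tested ADAMs, Adam8 was the only one to rise, and 8 did not pass the threshold. Adam8 (ENSMUSG00000025473.16, chr7:139978932-139992562, minus strand), a sheddase of macrophages and granulocytes, had 126, 132 and 128 FPKM in the Pth1rΔNLS libraries and 57.4, 65.3 and 70.8 FPKM in the WT libraries. The Pth1rΔNLS mean of 129 ± 3.36 FPKM was 1.996 times the WT mean of 64.5 ± 6.74 FPKM (SD, n = 3 each), and the libraries were far from overlapping. The log2 fold change was 0.99 (SE 0.09, adjusted p = 0.00104). Adam12, a mesenchymal ADAM that sheds growth factor precursors, was the only one to fall, with 2.46, 2.22 and 2.59 FPKM in Pth1rΔNLS and 3.73, 3.97 and 3.86 FPKM in WT (log2 fold change -0.50, adjusted p = 0.0182). Its call was lost without Pth1rΔNLS 1, Pth1rΔNLS 2, WT 1 or WT 3 (adjusted p 0.0516 to 0.0712).

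The general sheddases were not called. Adam10, which cuts Notch receptors and cadherins, had 56.5, 52.9 and 52.9 FPKM in Pth1rΔNLS and 41.1, 52.1 and 43.3 FPKM in WT, with a 95% interval of 0.01 to 0.49 around a log2 fold change of 0.25 and an adjusted p of 0.145. Its libraries did not overlap, and it passed without WT 2 (adjusted p = 0.0276). Adam17, which releases tumour necrosis factor, was listed in 1 of its 10 annotated transcripts and ran from 4.88 to 21.5 FPKM in Pth1rΔNLS and from 2.78 to 33.8 FPKM in WT. The 95% interval ran from -2.91 to 1.63 around its log2 fold change of -0.64, wide enough to hold a change as large as that of Adam8 in either direction. The gene also overlaps Iah1. Adam9 averaged 91.0 ± 13.5 FPKM in Pth1rΔNLS and 80.3 ± 11.7 FPKM in WT, Adam15 30.4 ± 4.02 FPKM in Pth1rΔNLS and 27.6 ± 3.36 FPKM in WT, and Adam19 15.5 ± 1.22 FPKM in Pth1rΔNLS and 15.992 ± 0.471 FPKM in WT, and none of the 3 passed. By level Adam8 was the highest ADAM in Pth1rΔNLS and Adam9 the highest in WT, and in neither genotype did the libraries of these genes overlap. Adam1a, Adam23 and Adam33 did not pass either (adjusted p 0.0569 to 0.848), and Adam4 was not tested.

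Timp1, Timp3 and Timp2 had the highest FPKM of the whole set, in that order, in both genotypes. Timp1 had 1252, 1345 and 1134 FPKM in the Pth1rΔNLS libraries and 1227, 1129 and 1191 FPKM in the WT libraries, and the genotypes overlapped (log2 fold change 0.07, 95% interval -0.14 to 0.29, adjusted p = 0.651). Timp3, which binds to matrix and also inhibits ADAM17 and the aggrecanases, had 382, 376 and 369 FPKM in Pth1rΔNLS and 480.5, 531 and 497 FPKM in WT (log2 fold change -0.42, SE 0.07, adjusted p = 0.00851). Timp2, the adaptor through which MMP14 activates pro-MMP2, had 219.5, 228 and 228 FPKM in Pth1rΔNLS and 301, 302 and 308 FPKM in WT (log2 fold change -0.43, SE 0.06, adjusted p = 0.00434). Both were lower in every Pth1rΔNLS library, and both fits without the replicate 1 library of each genotype gave an adjusted p of 0.0617. Timp1 overlaps Syn1 on the opposite strand, and Timp2 overlaps Cep295nl on the same strand. Reck, a membrane-anchored inhibitor, was listed at 0 in WT replicate 1, with 2.33, 2.07 and 2.51 FPKM in Pth1rΔNLS and 5.36 and 4.74 FPKM in the other WT libraries. Its adjusted p was 0.995 with all libraries and 0.0154, as lower, without WT 1.

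The 4 inhibitors summed to 1856, 1951 and 1733 FPKM in Pth1rΔNLS libraries, against 2007, 1967 and 2001 FPKM in WT libraries, and the sums did not overlap. Timp1 made up 67.4, 68.9 and 65.4% of that sum in Pth1rΔNLS, against 61.1, 57.4 and 59.5% in WT. The MMPs, ADAMs and ADAMTS proteases together summed to 777, 758 and 765 FPKM in Pth1rΔNLS and 939, 924 and 954 FPKM in WT. Their ratio to the inhibitors was therefore 0.418, 0.388 and 0.442 in Pth1rΔNLS libraries and 0.468, 0.470 and 0.477 in WT libraries. The ratio was lower in all 3 Pth1rΔNLS libraries, with a difference between the means of -0.0553, or -0.0264 after quantile normalization. It compares transcripts by FPKM, and it does not measure protein or activity.

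The genes picked as stromal and as myeloid were then set against each other within each library. The mean log2(FPKM + 1) of Mmp2, Adamts5 and Adamts12 was 3.54, 3.61 and 3.60 in the Pth1rΔNLS libraries, against 5.06, 5.17 and 5.10 in the WT libraries. That of Mmp12 and Mmp8 was 3.37, 3.49 and 3.42 in Pth1rΔNLS and 2.39, 2.29 and 1.90 in WT. The stromal genes thus exceeded the myeloid genes by 0.17, 0.12 and 0.18 in the Pth1rΔNLS libraries, against 2.67, 2.88 and 3.20 in the WT libraries, a difference of -2.76 between the means. In summed FPKM the stromal genes were 1.89, 1.65 and 1.66 times the myeloid genes in Pth1rΔNLS and 8.11, 11.5 and 14.6 times in WT. The direction followed from which genes were picked, so no test is given. By rank among the 42 genes, Mmp12 stood at 10 in Pth1rΔNLS and at 19 in WT.

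Because the marker sums moved with genotype, each gene was also read against them within its library, as log2(FPKM + 1) of the gene minus the mean of the markers, a description chosen after the values were seen. Against the macrophage and monocyte markers, Mmp12 stood at -3.02, -2.52 and -2.70 in Pth1rΔNLS libraries and -3.13, -3.84 and -3.80 in WT libraries. Mmp8 averaged -5.86 ± 0.14 in Pth1rΔNLS and -6.56 ± 0.20 in WT, and Adam8 -0.71 ± 0.07 in Pth1rΔNLS and -1.24 ± 0.22 in WT (SD, n = 3 each). These 3 genes were higher in every Pth1rΔNLS library than in any WT library on this scale too. Mmp10 and Mmp27 overlapped between genotypes once read this way, with means of -5.89 and -4.22 in Pth1rΔNLS and -6.15 and -4.39 in WT. Which cells expressed Mmp10 and Mmp27 was not tested, and this scale understates differences of low genes such as Mmp10. Mmp8, the collagenase of neutrophils, was not read against neutrophil markers, of which 1 was tested (Csf3r, log2 fold change 0.56). Against the stromal markers, Mmp2 averaged 0.35 ± 0.12 in Pth1rΔNLS and 0.28 ± 0.07 in WT and overlapped. Adamts5 averaged -3.14 ± 0.05 in Pth1rΔNLS and -2.29 ± 0.20 in WT, and Adamts12 -2.15 in Pth1rΔNLS and -1.69 in WT, both lower without overlap. Mmp13 and Mmp14 stood higher against the stromal markers in Pth1rΔNLS, at 2.28 and 1.12, than in WT, at 1.68 and 0.89. The stromal markers themselves had log2 fold changes from -1.76 (Cxcl12) to -0.54 (Dcn), so these readings depend on which markers are averaged. The log2 fold change of Adamts12 (-1.57) lay within that range and that of Adamts5 (-1.96) below it.

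Other cell types were marked by fewer listed genes. Of 12 neutrophil markers 3 were listed (S100a8, Camp and Csf3r, of which Camp was listed at 0 in Pth1rΔNLS replicates 1 and 3), and they summed to 5.69 to 6.83 FPKM in Pth1rΔNLS and 3.90 to 5.24 FPKM in WT, with 1 tested and higher. That gene, Csf3r, made up most of the sums, averaging 5.49 FPKM in Pth1rΔNLS and 3.41 FPKM in WT. The untested markers overlapped between genotypes. Camp averaged 0.166 FPKM in Pth1rΔNLS and 0.599 FPKM in WT, and S100a8 0.631 FPKM in Pth1rΔNLS and 0.408 FPKM in WT. Of 8 osteoclast markers 3 were listed, 2 higher (Atp6v0d2 and Itgb3) and 1 lower (Ctsk), with sums of 74.5 to 76.9 FPKM in Pth1rΔNLS and 82.7 to 95.9 FPKM in WT. Of 5 endothelial markers 4 were listed, 3 tested and 2 lower, with sums of 6.28 to 7.35 FPKM in Pth1rΔNLS and 10.5 to 12.6 FPKM in WT. Pf4, a gene of platelets and some macrophages, was the 1 listed megakaryocyte marker, higher at 511 ± 46.1 FPKM in Pth1rΔNLS and 361 ± 54.8 FPKM in WT. Erythroid, B cell, T cell and mast cell markers had 0 listed genes. The part of any cell type in the protease differences was not tested.

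**Figure D5:**
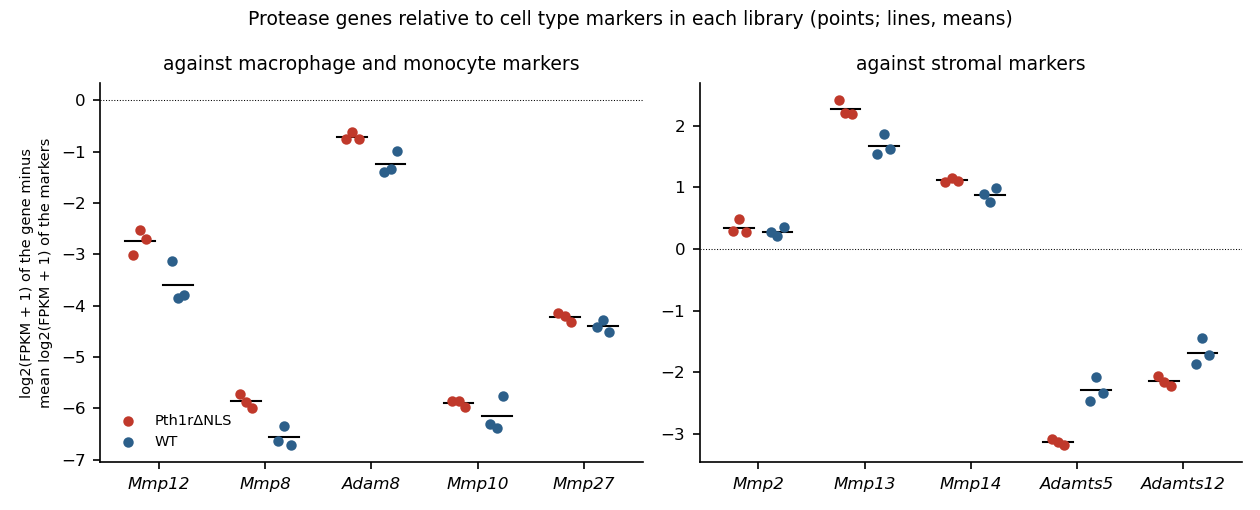
Log2(FPKM + 1) of 10 protease genes minus the mean log2(FPKM + 1) of the cell type markers in the same library (points; lines are means of 3 libraries), Pth1rΔNLS left of WT; the left panel uses 11 macrophage and monocyte markers and the right panel 6 stromal markers. Mmp12, Mmp8 and Adam8 stay higher and Adamts5 and Adamts12 lower in Pth1rΔNLS, while Mmp2, Mmp10 and Mmp27 overlap.

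The genes whose pattern over the 6 libraries was most like that of Mmp2, by Pearson correlation of log2(FPKM + 1), were Mmp17 (r = 0.9998), Mxra7 (0.999) and Morc4 (0.998). For Mmp12 they were Mocos, Arhgap39 and Selplg, all at 0.993. These correlations describe 6 points that fall into the genotypes, so a gene that differs between them in the same direction can score high. Arhgap39 was not called in the limma test (log2 fold change 0.20, adjusted p = 0.244).

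Genes that activate, escort or are cut by these proteases were read from lists of such partners. Among convertases and the plasminogen system, which remove propeptides from many MMPs and ADAMs, 10 of 12 genes were listed and tested, 1 higher and 4 lower, with a median log2 fold change of -0.50. Pcsk6, a convertase of the furin family, averaged 2.37 ± 0.196 FPKM in Pth1rΔNLS and 10.5 ± 0.807 FPKM in WT (log2 fold change -1.77, adjusted p = 0.000253). Serpine2, a secreted inhibitor of thrombin and plasminogen activators, was lower, at 89.5 ± 2.30 FPKM in Pth1rΔNLS and 156 ± 2.17 FPKM in WT (log2 fold change -0.80, adjusted p = 0.000478). Serpinb2, a plasminogen activator inhibitor typical of activated macrophages, was higher, at 241 ± 33.5 FPKM in Pth1rΔNLS and 83.7 ± 17.4 FPKM in WT (log2 fold change 1.53, adjusted p = 0.00195). Of 11 regulators of ADAMs, 9 were listed and 8 tested, 2 higher and 1 lower, with a median of 0.10. Rhbdf2, whose product iRhom2 escorts ADAM17 to the surface, had a log2 fold change of 0.48 (adjusted p = 0.0461), Tspan14, an escort of ADAM10, 0.27 (adjusted p = 0.0390), and Dlg1, a scaffold, -0.52 (adjusted p = 0.00502).

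Of 20 matrix substrates 15 were listed and 14 tested, with 0 higher and 10 lower and a median log2 fold change of -0.84, Col1a1 and Col1a2 being stromal markers as well. Thbs1, a matrix glycoprotein, averaged 1103 ± 16.5 FPKM in Pth1rΔNLS and 2413 ± 107 FPKM in WT (log2 fold change -1.13, adjusted p = 0.000380). The fibrillar collagen genes Col1a1, Col3a1 and Col1a2 had log2 fold changes of -1.75, -1.52 and -1.22 (adjusted p = 0.00156, 0.00163 and 0.00201). Of 24 other matrix proteases and inhibitors 18 were listed and 16 tested, 2 higher and 6 lower, with a median of -0.37. Pappa, a metalloproteinase that cuts IGF-binding proteins, averaged 7.07 ± 0.489 FPKM in Pth1rΔNLS and 33.4 ± 3.94 FPKM in WT (log2 fold change -2.09, adjusted p = 0.000168). Ctsk, the collagen-cutting cathepsin of osteoclasts, which stromal cells also express, averaged 31.6 ± 1.76 FPKM in Pth1rΔNLS and 66.5 ± 5.39 FPKM in WT (log2 fold change -1.05, adjusted p = 0.000725). Htra3, a secreted serine protease, was lower (log2 fold change -0.89, adjusted p = 0.00498), and Ctsb, a lysosomal cathepsin abundant in macrophages, was higher (log2 fold change 0.45, adjusted p = 0.00841). Over the 4 partner lists 26 genes were called, and 13 were called without the replicate 1 library of both genotypes. The called share of tested genes was 50% for convertases and the plasminogen system and 37.5% for regulators of ADAMs. It was 71.4% for matrix substrates and 50% for the other matrix proteases and inhibitors, against 17.3% of all genes tested. Without the replicate 1 library of both genotypes, 620 of all 10905 tested genes were called.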

How the data were processed

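RNA-seq of 6 libraries (3 Pth1rΔNLS, 3 WT) was analysed from the table of FPKM that the authors deposited, 1 value per transcript and library. Per the submitters' processing notes, HISAT2, StringTie and the mouse build mm10 were used. No source used here gives versions, settings or strand use. The authors' header names no unit, and the values were taken as FPKM because their length-weighted sums varied by 1.49% between libraries and their plain sums by 3.46%. StringTie divides reads between transcripts, and a value of exactly 0 may reflect a failed estimate. FPKM hold no read counts, so no interval from counting is given and low levels carry unknown counting error. All per-sample columns were assigned to a sample (0 left unused).

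Transcripts were named by identifier from GENCODE M21 (23300 of 23351), and FPKM were summed per gene. The Pth1rΔNLS and WT libraries were fitted on log2(FPKM + 1) with limma 3.58.1 (R 4.3.3; eBayes with a mean-variance trend, no covariate). The fit covered the 10905 genes averaging 1 FPKM or more, and p-values were Benjamini-Hochberg adjusted over all of them. The threshold was 0.05. A fold change on this scale understates low genes. With 3 libraries a side an exact permutation test of 1 value cannot go below 0.1, so none was used. Sums, ratios and correlations were computed with Python 3.11.15, pandas 2.3.3 and numpy 2.4.6 and drawn with matplotlib 3.10.9.

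The genes and lists were chosen with earlier results of these data known. Every called gene of the set, the stromal and myeloid genes and the inhibitors are named with values for each library; of each partner list up to 4 called genes of smallest p are named, except 1 that is not reported here. Promoters are RefSeq sequences on GRCm38.p6, matched by symbol for 28 of 42 genes. Alternatives were another pseudocount, filter, scaling, weighting or transcript choice, a replicate block, and libraries left out.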

Additional observations from a re-analysis of the deposited data

How the results depend on the processing

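All 21 called genes of the set kept their call in every alternative run with all 6 libraries and no replicate block (pseudocount 0.1, filters, scalings, robust fit, array weights, single transcript), where tested. Of them 16 kept it whichever 1 library was left out, 12 also without WT 1 and Pth1rΔNLS 1 together, and 0 changed direction. The highest adjusted p of Mmp12 over all alternatives was 0.0499, just below the threshold. Same-numbered libraries of the genotypes deviated from their means with correlations of -0.19, -0.07 and 0.07. Differently numbered libraries gave -0.17 to 0.23. With 3 libraries per genotype, these values cannot decide whether the numbers pair the samples.

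With the replicate block, 792 genes were called in place of 1886, 12 in place of 21 of the set (3 higher, 9 lower) and 16 in place of 26 partner genes. Mmp13 was among the 9 lost (adjusted p = 0.0541). Without WT 1 and Pth1rΔNLS 1, 620 genes, 12 of the set (2 higher, 10 lower) and 13 partner genes were called. Both alternatives leave fewer residual degrees of freedom. Leaving out 1 library gave 1051 to 1712 genes called, and 3 to 5 of the set higher. The 5 were not the same genes as in the main fit. Without WT 2 they held 4 of those and Adam10, and without WT 3 they held 4 of those and Adamtsl1. With a mean of at least 5 FPKM, 3 of the set were higher, since fewer genes were tested.

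The stromal minus myeloid difference was -3.33 with a pseudocount of 0.1, against -2.76. The protease to inhibitor ratio differed by -0.0264 after quantile normalization, against -0.0553. The cause of that shift was not tested. Of 615 results for single genes under alternatives, 567 kept the call or the lack of one, 42 lost the call and 6 gained one. The 567 did not all keep their direction. A change of sign was seen in 0 called genes, but in uncalled genes such as Reck (6 alternatives) and Adamtsl5 (3 alternatives). Depth is unknown, so precision at low FPKM rests on the spread of 3 libraries.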
